A study of Mus musculus with 24 samples.

Results

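The genes described here are the interleukins of the mouse lung with their receptors and antagonists. They are the 82 genes, of 20728 measured, whose array annotation symbol is Il followed by a digit. They divide into 37 ligands, 37 receptor chains, 7 antagonists or decoys, and Il4i1, an enzyme named for its induction by IL-4. The selection used names alone and no measured value. For 2 members a newer name is used, Ifnl3 and Ifnlr1, the ligand and receptor of type III interferon. Il1f5, Il1f6, Il1f8 and Il1f9 are older names for genes of the IL-36 group.

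RNA from whole lungs of C57BL/6 mice aged 9 to 12 weeks was hybridised to 24 one-colour arrays. The mice were given PBS or bleomycin, a drug that breaks DNA and is used to provoke lung scarring in rodents. All groups, controls included, also received a gapmer, an antisense oligonucleotide through which RNase H cuts the matching RNA. A control gapmer was compared with gapmer 1 and gapmer 3, both aimed at Dnm3os, a long noncoding RNA that is the host transcript of microRNAs. The 3 groups given PBS have 3 arrays each, and the 3 groups given bleomycin have 5 each. No genetic alteration is named in the labels. Not given in the sources used here are the dose, the time after bleomycin and the sex. Whether samples of a group are separate animals is likewise unstated, and the spread that the p-values measure may then be technical.

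Interleukins are small secreted proteins through which leukocytes, epithelium and fibroblasts signal to each other. Many of them bind a receptor that pairs a private chain with a chain shared within a family. Il6st, also called gp130, serves the IL-6 family, Il2rg the IL-2, IL-4, IL-7 and IL-21 group, and Il1rap most of the IL-1 family. Most of the receptors signal through Janus kinases and STAT proteins, and SOCS proteins act as feedback inhibitors. The IL-1 and IL-17 families signal instead towards NF-κB. IL-1β, IL-6, IL-11, IL-13 and IL-17A have all been studied as mediators of inflammation and scarring in bleomycin-injured lung.

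Values are log2 intensities, so a difference of 1 is a doubling of signal. A difference was called when limma's Benjamini-Hochberg adjusted p over all 20728 genes was under 0.05. A level under 6.11, the 25th percentile of the mean levels of all genes, is termed dim, and a difference between 2 dim groups was not read as a fold. By that measure 28 members were dim over all arrays, among them 18 ligands, 8 receptors and 2 antagonists. In all 6 groups 19 were dim, including Il13, Il17a, Il2, Il21 and Il25.

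The target and the tissue were checked first. Dnm3os was higher with bleomycin under the control gapmer by 0.56 ± 0.12 (SE, adjusted p = 0.00112). In bleomycin lungs it was lower by 0.72 ± 0.11 (SE, adjusted p = 0.000186) with gapmer 1 and by 0.50 ± 0.11 (SE, adjusted p = 0.00293) with gapmer 3. In PBS lungs the differences of -0.45 and -0.25 did not pass the test. Its mean level was 6.34 in PBS controls, and 5.89 and 6.10, both dim, with gapmer 1 and gapmer 3 in PBS lungs. In bleomycin lungs it was 6.90 with the control gapmer and 6.18 and 6.40 with gapmer 1 and gapmer 3. The gapmer 3 arrays there overlapped the controls. Of 6 lung epithelial markers, none of them dim, 2 fell with bleomycin, Sftpa1 by 0.89 and Ager by 0.44, and 3 and 2 were higher with gapmer 1 and gapmer 3 in bleomycin lungs. Sums of markers of tissues other than lung also differed between arrays. The log2 sum of 8 squamous epithelial markers ranged from 9.45 to 16.99, and that of 6 skeletal muscle markers from 9.33 to 16.20. All 5 adipose markers fell with bleomycin under the control gapmer, as did 3 of 5 cardiac muscle markers. Adipose sums were 13.83 to 14.67 in PBS controls and 11.91 to 12.58 in bleomycin controls. Cardiac muscle sums were 15.90 to 16.09 and 15.01 to 15.57. In PBS lungs the adipose sums with gapmer 1 and gapmer 3, 12.82 to 13.83 and 12.24 to 13.70, also lay below the controls. Under neither of those gapmers was any adipose marker called with bleomycin. The log2 sum of 6 thymus markers was 12.63 on bleomycin control replicate 3 and 10.79 to 11.67 on the other arrays. Of those markers Rag1, Rag2 and Ptcra were dim over all arrays. The part of adipose, muscle and thymus tissue in the results was not tested.

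Bleomycin under the control gapmer raised 26 members and lowered 8. Il6 rose most among the ligands, by a factor of 5.39, followed by Il11 and Il12b, and the receptors Il2ra, Il7r, Il4ra and Il21r and the decoy Il1r2 rose more than 2-fold. The fall was largest for the receptor Il17rd, and the alarmin Il33 fell as well. Together 34 of 82 members, 41.5%, were called, against 33.8% of all genes. By direction 14.5% of all genes were higher and 19.3% lower, and the members' median difference was 0.18 against -0.02 over all genes. Ligands gave 6 rises and 3 falls of 37, receptors 16 and 4 of 37, antagonists 3 and 1 of 7, and Il4i1 rose. The groups did not overlap for 42 members, 33 higher and 9 lower with bleomycin, against 33.3% of all genes (15.1% higher and 18.2% lower). Of the 54 members that were not dim 31 were called, 57.4%, against 43.1% of the genes that were not dim.

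Il6 encodes an acute-phase and pro-inflammatory cytokine, and Il11 its relative that signals through the same gp130 chain and acts on fibroblasts. Il6 stood at 6.47, 6.41 and 6.59 on the PBS arrays and at 8.86, 9.33, 8.82, 8.96 and 8.63 on the bleomycin arrays with the control gapmer, a rise of 2.43 ± 0.27 (SE, adjusted p = 5.85e-07). Il11 stood at 7.19, 7.14 and 7.15 and at 8.40, 8.64, 8.21, 8.53 and 8.23, a rise of 1.24 ± 0.16 (SE, adjusted p = 3.12e-06). Neither gene's groups overlapped, and for both the lowest bleomycin array lay at least 1 log2 unit above the highest PBS array.

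With either gapmer both ligands were lower in the bleomycin lungs. Il6 was 7.94, 7.07, 7.02, 8.41 and 7.52 with gapmer 1, lower than in the bleomycin controls by 1.33 ± 0.23 (SE, adjusted p = 0.000905), and 7.38, 7.48, 7.02, 7.43 and 7.03 with gapmer 3, lower by 1.65 ± 0.23 (SE, adjusted p = 6.67e-05). No array of either gapmer reached the lowest bleomycin control, although replicate 4 of gapmer 1 came near it. Il11 was 7.45, 7.46, 7.22, 8.31 and 7.57 with gapmer 1, lower by 0.80 ± 0.14 (SE, adjusted p = 0.000743), and 7.73, 7.44, 7.46, 7.48 and 7.39 with gapmer 3, lower by 0.90 ± 0.14 (SE, adjusted p = 0.000143). That same replicate 4 lay within the range of the controls for Il11, while the gapmer 3 arrays lay wholly below it. In PBS lungs the gapmers left Il6 and Il11 without a called difference, although PBS gapmer 3 replicate 1 read 7.52 for Il6, above the other 8 PBS arrays, which lay between 6.31 and 6.84.

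**Figure D1:**
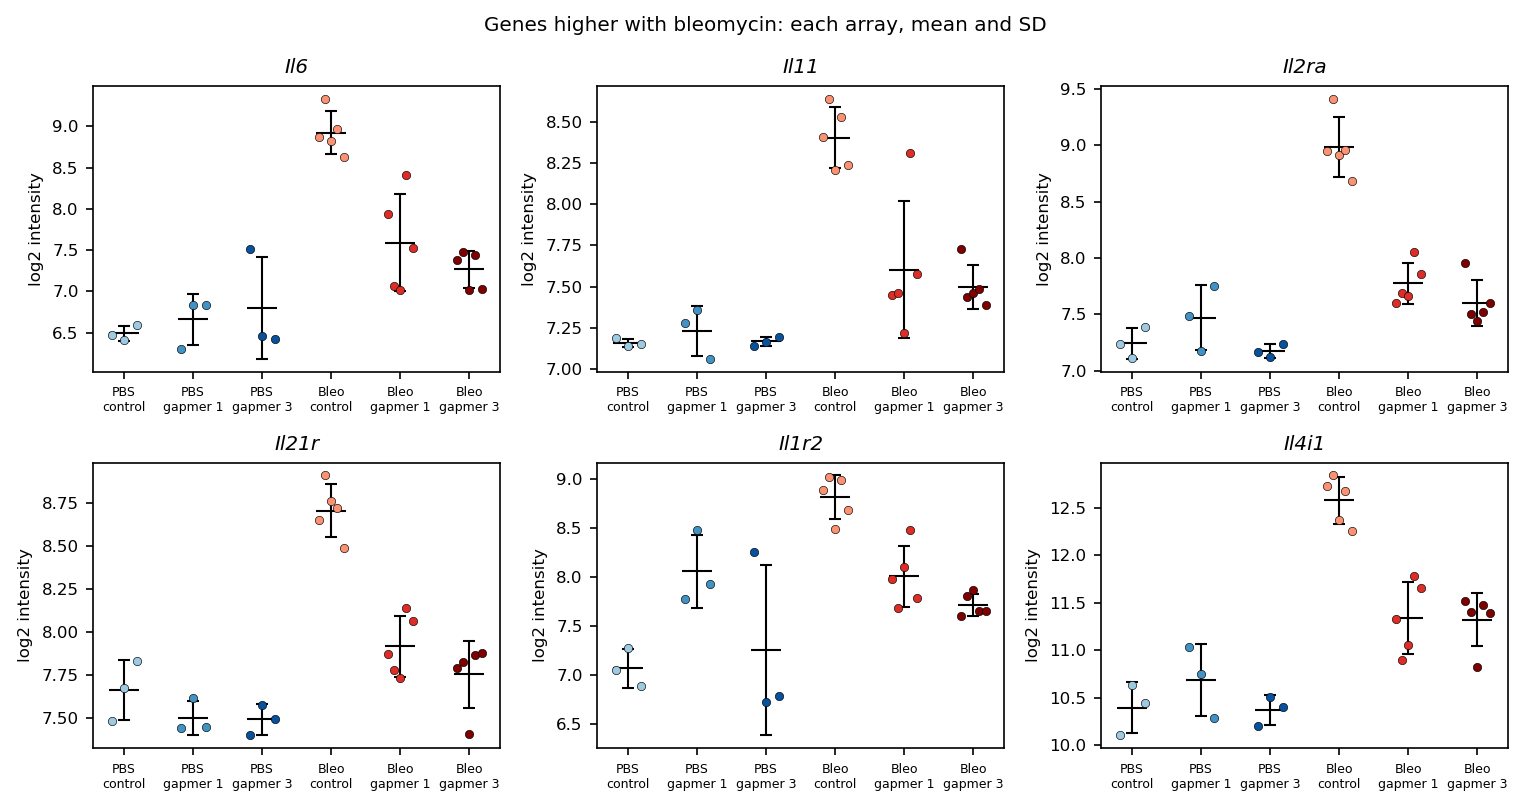
Log2 intensity of Il6, Il11, Il2ra, Il21r, Il1r2 and Il4i1 on each array of the 6 groups, with the group mean and SD (n = 3 for PBS groups, n = 5 for bleomycin groups). In all 6 panels the bleomycin control arrays stand highest, and no gapmer array of the bleomycin groups reaches them except replicate 4 of gapmer 1 for Il11.

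The 250 bases before the annotated starts of Il6 and Il11, and of Il2ra and Il4i1 described next, are shown because these genes are among the 5 largest rises with bleomycin and were all lower with both gapmers. Il1r2, the remaining gene of those 5, was also lower with both gapmers and is not shown. The sequences are RefSeq's for GRCm38.p6, read 5′ to 3′ on the gene's strand, and capitals mark matches to 5 motifs searched on both strands. The motifs are AP-1 (TGANTCA), the cyclic AMP response element CRE (TGACGTCA), C/EBP (TTNNGCAA), STAT (TTCNNNGAA) and NF-κB by its decamer. Il6 lies at chr5:30012864-30013113 on the plus strand and holds AP-1, C/EBP and NF-κB letters. Il11 has 2 starts on the minus strand, at chr7:4778142-4778391 with an AP-1 match and at chr7:4782858-4783107 with none. Il2ra, at chr2:11642542-11642791 on the plus strand, holds 2 overlapping NF-κB matches, and Il4i1, at chr7:44836038-44836287 on the plus strand, holds none of the 5.
Il6: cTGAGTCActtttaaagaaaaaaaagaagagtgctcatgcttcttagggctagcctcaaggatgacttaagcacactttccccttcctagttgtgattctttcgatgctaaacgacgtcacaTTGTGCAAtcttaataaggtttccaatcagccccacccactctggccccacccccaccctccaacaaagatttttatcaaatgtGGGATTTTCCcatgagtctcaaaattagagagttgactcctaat
Il11, first start: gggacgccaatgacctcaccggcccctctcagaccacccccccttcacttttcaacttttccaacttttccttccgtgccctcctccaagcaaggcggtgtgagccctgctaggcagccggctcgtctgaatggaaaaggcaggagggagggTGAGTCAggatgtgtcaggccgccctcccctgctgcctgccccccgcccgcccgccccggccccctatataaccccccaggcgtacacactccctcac
Il11, second start: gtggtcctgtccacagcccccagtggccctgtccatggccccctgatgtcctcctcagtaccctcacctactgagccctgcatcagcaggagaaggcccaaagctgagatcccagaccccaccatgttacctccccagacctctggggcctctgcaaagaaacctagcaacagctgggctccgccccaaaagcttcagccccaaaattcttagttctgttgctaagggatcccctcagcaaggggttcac
Il2ra: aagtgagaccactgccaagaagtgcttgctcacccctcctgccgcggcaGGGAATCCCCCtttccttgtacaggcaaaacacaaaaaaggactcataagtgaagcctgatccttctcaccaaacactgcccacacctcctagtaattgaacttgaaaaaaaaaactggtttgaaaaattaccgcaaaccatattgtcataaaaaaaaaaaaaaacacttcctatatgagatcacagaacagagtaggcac
Il4i1: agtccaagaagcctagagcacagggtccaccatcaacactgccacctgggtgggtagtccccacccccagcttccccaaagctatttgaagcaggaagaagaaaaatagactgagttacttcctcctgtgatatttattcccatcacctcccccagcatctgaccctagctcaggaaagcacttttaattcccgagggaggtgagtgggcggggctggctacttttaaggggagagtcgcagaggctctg

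Windows were found for 65 members, 79 windows in all, and are compared with the 32851 windows of all genes of the same length. AP-1 letters stood in 14 of the 79 member windows, 17.7%, against 6.75% of all windows. C/EBP letters stood in 13, 16.5%, against 9.56%, STAT letters in 8, 10.1%, against 7.02%, NF-κB letters in 5, 6.33%, against 3.9%, and CRE letters in 0 against 1.55%. Among the 23 windows of members that rose with bleomycin, 4 held AP-1 letters, 6 C/EBP, 3 STAT, 4 NF-κB and 0 CRE letters, which is 17.4%, 26.1%, 13%, 17.4% and 0%. Of the 8 windows of members that fell, 1 held C/EBP letters and 0 held any of the other 4. Windows of 1 gene can overlap, and a match is a description of letters, not a binding site.

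Il12b, Il34, Il19 and Il24 were the other ligands that rose with bleomycin. Il12b, the shared p40 chain of IL-12 and IL-23, stood at 6.42, 6.06 and 5.93 with PBS and at 7.19, 7.35, 7.24, 7.39 and 7.42 with bleomycin, a rise of 1.18 ± 0.16 (SE, adjusted p = 5.31e-06). With the gapmers it remained between 6.74 and 7.50 in bleomycin lungs, and the differences from control of -0.27 and -0.21 were not called. Il12b has 10 spots, and with their mean it was lower by 0.34 and 0.36 and called with both gapmers. The highest gapmer 3 value, 7.50 on replicate 2, is that of the spot used, where the 9 other spots read 6.65 to 6.97. Il34, a second ligand of the macrophage receptor Csf1r, rose from 10.02, 10.08 and 10.18 to 10.73, 10.70, 10.51, 10.76 and 10.33, by 0.51 ± 0.11 (SE, adjusted p = 0.00088). Its differences with gapmer 1 and gapmer 3 were -0.01 and 0.01, with 95% intervals of -0.21 to 0.18 and -0.19 to 0.21. On the features used, all 10 gapmer arrays lay above the highest PBS control array for both Il12b and Il34. Il19 and Il24, IL-20 group cytokines, rose by 0.31 and 0.28 from dim PBS levels.

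Il33, an alarmin held in the nucleus of epithelial and other barrier cells, moved the other way. It read 12.03, 12.00 and 12.05 with PBS and 11.61, 11.62, 11.73, 11.67 and 12.00 with bleomycin under the control gapmer, a fall of 0.30 ± 0.09 (SE, adjusted p = 0.0151). With the gapmers it read 12.13, 12.20, 12.11, 12.01 and 12.48 and 12.12, 12.15, 12.21, 11.98 and 12.08 in bleomycin lungs, higher than control by 0.46 ± 0.08 (SE, adjusted p = 0.000918) and 0.39 ± 0.08 (SE, adjusted p = 0.00276). Bleomycin control replicate 5, at 12.00, stood apart from the other 4 and within the range of gapmer 3 but just below that of gapmer 1. In PBS lungs every array with either gapmer read lower than the controls (11.71, 11.71 and 11.94, and 11.75, 11.73 and 11.72), though differences of -0.24 and -0.30 were not called. The bleomycin response of Il33 thus ran from a fall under the control gapmer to rises of 0.40 ± 0.09 (SE, adjusted p = 0.00891) under gapmer 1 and 0.38 ± 0.09 (SE, adjusted p = 0.00814) under gapmer 3, and both differences in response were called (0.70 ± 0.13 SE, adjusted p = 0.00478, and 0.68 ± 0.13 SE, adjusted p = 0.00887). The PBS levels enter these responses. The fall under the control gapmer was not called without PBS control replicate 3 (-0.29), nor the rise under gapmer 1 without PBS gapmer 1 replicate 1 or 2 (0.36 each time).

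Il17d and Il15 were the other ligands that fell with bleomycin. Il17d, a cytokine of the IL-17 family, fell from 10.20, 9.72 and 10.15 to 9.62, 9.49, 9.58, 9.64 and 9.70, by 0.42 ± 0.10 (SE, adjusted p = 0.00296). It was higher with gapmer 1 by 0.48 ± 0.09 (SE, adjusted p = 0.00137) and with gapmer 3 by 0.48 ± 0.09 (SE, adjusted p = 0.000903), and none of those 10 arrays overlapped the bleomycin controls. With the mean of its features the gapmer 3 difference was 0.29 and still called. Il15, which maintains NK cells and memory T cells, fell by 0.31 ± 0.09 (SE, adjusted p = 0.0116) and had no called difference with either gapmer (0.08 and 0.00). The fall of Il15 was not called without PBS control replicate 2 (-0.28).

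Il1b, the secreted inflammatory form of IL-1, was not called with bleomycin but was lower with both gapmers. It read 9.44, 9.19 and 9.50 with PBS and 9.80, 10.05, 9.82, 9.92 and 9.48 with bleomycin under the control gapmer, a difference of 0.44 ± 0.24 (SE, adjusted p = 0.184) with overlapping groups. With gapmer 1 it read 8.75, 8.61, 9.35, 9.46 and 8.97, lower by 0.79 ± 0.21 (SE, adjusted p = 0.0185), and with gapmer 3 8.67, 8.95, 8.57, 9.16 and 8.94, lower by 0.96 ± 0.21 (SE, adjusted p = 0.00381). All 10 arrays with a gapmer against Dnm3os lay below all 5 controls, and 8 of them lay below the lowest PBS control array. Of 6 neutrophil markers measured, none dim, 2 were lower with each gapmer in these samples, Cxcr2 by 0.54 and 0.55 and Retnlg by 0.69 and 0.87. The neutrophil marker sum was 15.14 to 15.53 in PBS controls, 14.38 to 15.30 in bleomycin controls and 14.28 to 15.00 and 14.69 to 15.10 with the gapmers, and its part in the Il1b values was not tested. Il1b is printed 10 times on each array, and the spots of 1 array spanned a median of 0.22. The gapmer 1 call was lost without bleomycin control replicate 2 (-0.73) or gapmer 1 replicate 1 (-0.72) or 2 (-0.68). The bleomycin response of Il1b differed with gapmer 3 (-1.27 ± 0.34 SE, adjusted p = 0.0463). PBS gapmer 3 replicate 1, at 10.55 and bright on all 10 spots, enters that value: without it the difference was -0.84 and was not called, and the call was lost without 13 of the 16 arrays compared, each taken singly.

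Il1a, the cell-bound form of IL-1, was higher with gapmer 3 in bleomycin lungs by 0.32 ± 0.09 (SE, adjusted p = 0.0203) and had an uncalled difference of 0.24 with gapmer 1. The call was lost without bleomycin control replicate 2 or 3 or gapmer 3 replicate 1 or 2, at 0.28 to 0.29. Il18, an inflammasome-processed cytokine, was higher with gapmer 1 by 0.34 ± 0.11 (SE, adjusted p = 0.0458) and not called with gapmer 3 (0.02). This call was lost without 8 of the 10 arrays, all but bleomycin control replicate 5 and gapmer 1 replicate 4, at 0.29 to 0.35. Il16, a chemoattractant for CD4 T cells, was lower with gapmer 1 by 0.29 ± 0.08 (SE, adjusted p = 0.0172) and with gapmer 3 by 0.34 ± 0.08 (SE, adjusted p = 0.00432). Il7, a survival factor for lymphocytes, stood between 6.27 and 6.86 on all arrays and was called in none of the 10 comparisons. Il24 was lower with gapmer 3 by 0.23 and the dim Il25 higher, with no fold read for it.

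The receptors that rose with bleomycin were led by chains that lymphocytes carry. Il2ra, the α chain of the IL-2 receptor and a mark of activated and regulatory T cells, stood at 7.24, 7.11 and 7.39 with PBS and at 8.95, 9.41, 8.92, 8.96 and 8.68 with bleomycin, a rise of 1.74 ± 0.15 (SE, adjusted p = 1.74e-08). With the gapmers it stood at 7.61, 7.69, 7.67, 8.05 and 7.86 and 7.95, 7.50, 7.44, 7.52 and 7.60 in bleomycin lungs, lower by 1.21 ± 0.13 (SE, adjusted p = 2.69e-06) and 1.38 ± 0.13 (SE, adjusted p = 3.02e-07). The arrays of the 3 bleomycin groups did not overlap between the control and either gapmer.

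Il21r, the receptor for the T cell cytokine IL-21, rose from 7.48, 7.67 and 7.83 to 8.65, 8.91, 8.76, 8.72 and 8.49, by 1.04 ± 0.12 (SE, adjusted p = 5.47e-07). It was lower in bleomycin lungs by 0.79 ± 0.10 (SE, adjusted p = 3.13e-05) with gapmer 1 and by 0.95 ± 0.10 (SE, adjusted p = 1.93e-06) with gapmer 3, again without overlap. Il2rb, the β chain that IL-2 and IL-15 share, rose by 0.48 ± 0.11 (SE, adjusted p = 0.00165) and was lower by 0.69 ± 0.10 (SE, adjusted p = 0.000101) and 0.70 ± 0.10 (SE, adjusted p = 5.16e-05). Its gapmer arrays, at 8.22 to 8.54 and 8.19 to 8.63, all lay below the bleomycin controls at 8.90 to 9.30. Il7r, the IL-7 receptor of naive and memory lymphocytes, rose by 1.16 ± 0.16 (SE, adjusted p = 5.4e-06) and was lower by 0.57 ± 0.13 (SE, adjusted p = 0.00879) and 0.49 ± 0.13 (SE, adjusted p = 0.0169), with overlap at the lowest control. The gapmer 3 call on Il7r was lost without bleomycin control replicate 2 (-0.45).

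Il27ra and Il12rb1, receptor chains for IL-27 and for IL-12 and IL-23, followed the same order. Il27ra read 7.23 to 7.74 with PBS, 8.09 to 8.30 with bleomycin, and 7.10 to 7.78 and 7.30 to 7.73 with the gapmers, lower by 0.66 ± 0.12 (SE, adjusted p = 0.000911) and 0.61 ± 0.12 (SE, adjusted p = 0.00118). Il12rb1 read 7.18 to 7.49, 7.80 to 7.99, and 7.28 to 7.51 and 7.08 to 7.34, lower by 0.49 ± 0.07 (SE, adjusted p = 0.000234) and 0.61 ± 0.07 (SE, adjusted p = 1.29e-05). For both genes the gapmer arrays lay wholly below the bleomycin controls. Il10ra, the IL-10 receptor of leukocytes, rose by 0.60 and was lower by 0.36 and 0.46, and Il17ra and Il17rb, IL-17 family receptors, rose by 0.25 and 0.48 and were lower with both gapmers. Il18rap, a chain of the IL-18 receptor, rose by 0.40 and was called lower with gapmer 3 alone (-0.48, against -0.33 with gapmer 1).

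Markers of lymphocytes moved in the same samples. Of the 7 T cell markers measured, of 9 listed, 6 rose with bleomycin, and 5 of 7 were lower with each gapmer. The log2 of their summed intensity was 12.16 to 12.55 in PBS controls, 12.98 to 13.70 in bleomycin controls, and 12.36 to 12.55 and 12.13 to 12.49 with gapmer 1 and gapmer 3, and none of the 7 was dim. Cd3e, for example, rose by 0.78 and was lower by 0.86 and 0.97. The highest T cell sum, 13.70, was that of bleomycin control replicate 3, the array with the thymus marker sum of 12.63. Of 5 B and plasma cell markers 3 rose and 4 were lower with each gapmer, with sums of 13.94 to 14.20, 14.36 to 14.82, 13.92 to 14.24 and 13.56 to 14.27 in the same 4 groups. All 5 NK cell markers fell with bleomycin and none was called with a gapmer, with sums of 13.13 to 13.58, 11.66 to 12.51, 11.67 to 12.68 and 12.05 to 12.54. All 5 macrophage and monocyte markers rose and 1 of 5 was lower with each gapmer, with sums of 14.43 to 14.70, 14.87 to 15.27, 14.77 to 15.20 and 14.78 to 15.11. The part of these cells in the receptor differences was not tested, and in whole lung fewer cells of a type and less RNA per cell cannot be told apart.

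Another set of receptors rose with bleomycin and had no called difference with either gapmer. Il4ra, the chain shared by the IL-4 and IL-13 receptors, stood at 10.10, 9.69 and 9.59 with PBS and at 10.90, 11.06, 10.79, 11.15 and 10.85 with bleomycin, a rise of 1.15 ± 0.21 (SE, adjusted p = 0.000222), or 0.74 and still called with the mean of its features. Under gapmer 1 and gapmer 3 it stood at 10.15 to 11.45 and 10.26 to 10.91 in bleomycin lungs, overlapping the controls, and differences of -0.24 and -0.41 were not called. Their 95% intervals, -0.63 to 0.15 and -0.80 to -0.02, do not show that the levels were alike. Il1r1, the signalling receptor for IL-1, rose by 0.62 ± 0.11 (SE, adjusted p = 0.000165), with gapmer differences of -0.22 and -0.22 that were not called. Il13ra1, which pairs with Il4ra, rose by 0.47 ± 0.14 (SE, adjusted p = 0.0147) and differed by -0.14 and 0.04, and Il20rb and Il3ra, receptor chains for the IL-20 group and for IL-3, rose by 0.66 and 0.41. The call on Il13ra1 was lost without PBS control replicate 3, where its rise was 0.33. Il20rb read 7.75 to 8.23 in bleomycin controls. It read 7.70 to 8.13 on the PBS gapmer 1 arrays and PBS gapmer 3 replicate 1, and 7.25 to 7.52 on the remaining PBS arrays. The former had the highest squamous marker sums among PBS arrays. Those sums were 9.51 to 14.39 in PBS controls and 15.53 to 15.84 in bleomycin controls, and the part of that tissue in the Il20rb rise was not tested.

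Receptors that fell with bleomycin under the control gapmer were Il17rd, Il11ra1, Ifnlr1 and Il1rap. Il17rd, a membrane protein of the IL-17 receptor family also known as Sef that restrains FGF signalling, fell from 11.06, 10.74 and 10.98 to 10.03, 10.00, 10.06, 10.04 and 10.18, by 0.87 ± 0.08 (SE, adjusted p = 6.99e-08). With the gapmers it stood at 10.63, 10.47, 10.47, 10.62 and 10.70 and 10.75, 10.67, 10.62, 10.65 and 10.82, higher by 0.51 ± 0.07 (SE, adjusted p = 7.77e-05) and 0.64 ± 0.07 (SE, adjusted p = 3.92e-06), and none of these arrays overlapped the controls. Gapmer levels lay below those of PBS controls on all arrays with gapmer 1, while 2 arrays with gapmer 3, at 10.75 and 10.82, lay above the lowest PBS control. Ifnlr1, through which epithelium responds to type III interferon, fell by 0.43 ± 0.09 (SE, adjusted p = 0.000496) and was higher with the gapmers by 0.31 ± 0.08 (SE, adjusted p = 0.0101) and 0.36 ± 0.08 (SE, adjusted p = 0.0031), with 1 control array in their range. Il11ra1, the private IL-11 receptor chain, fell by 0.52 ± 0.11 (SE, adjusted p = 0.000587) and had uncalled differences of -0.04 and -0.01 with the gapmers. Il1rap fell by 0.37 (limma adjusted p = 0.000429). For both genes the PBS gapmer 1 and gapmer 3 arrays also lay below the PBS controls. Il11ra1 read 13.87 to 14.08 in PBS controls, 13.48 to 13.74 with either gapmer in PBS lungs, and 13.40 to 13.52 in bleomycin controls. Il1rap read 7.31 to 7.53, 6.97 to 7.17 and 6.95 to 7.14 in that order. Neither fall was called under gapmer 1 or gapmer 3. Il17rc, the partner of Il17ra, was not called with bleomycin and was higher with gapmer 1 by 0.33 ± 0.09 (SE, adjusted p = 0.0276), a call lost when the mean of its features was used (0.21) or without bleomycin control replicate 2 or 3 or gapmer 1 replicate 1 or 4 (0.26 to 0.31).

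Il6ra and Il6st, the receptor chains for IL-6, showed no called difference with bleomycin under the control gapmer or with either gapmer in bleomycin lungs. Il6ra differed by -0.21 ± 0.11 (SE, adjusted p = 0.161) with bleomycin and by -0.08 and -0.12 with the gapmers. Il6st differed by -0.07 ± 0.06 (SE, adjusted p = 0.445), -0.10 and -0.11. Il6st lay between 12.45 and 12.84 on all arrays, and under gapmer 3 it fell with bleomycin by 0.26.

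**Figure D2:**
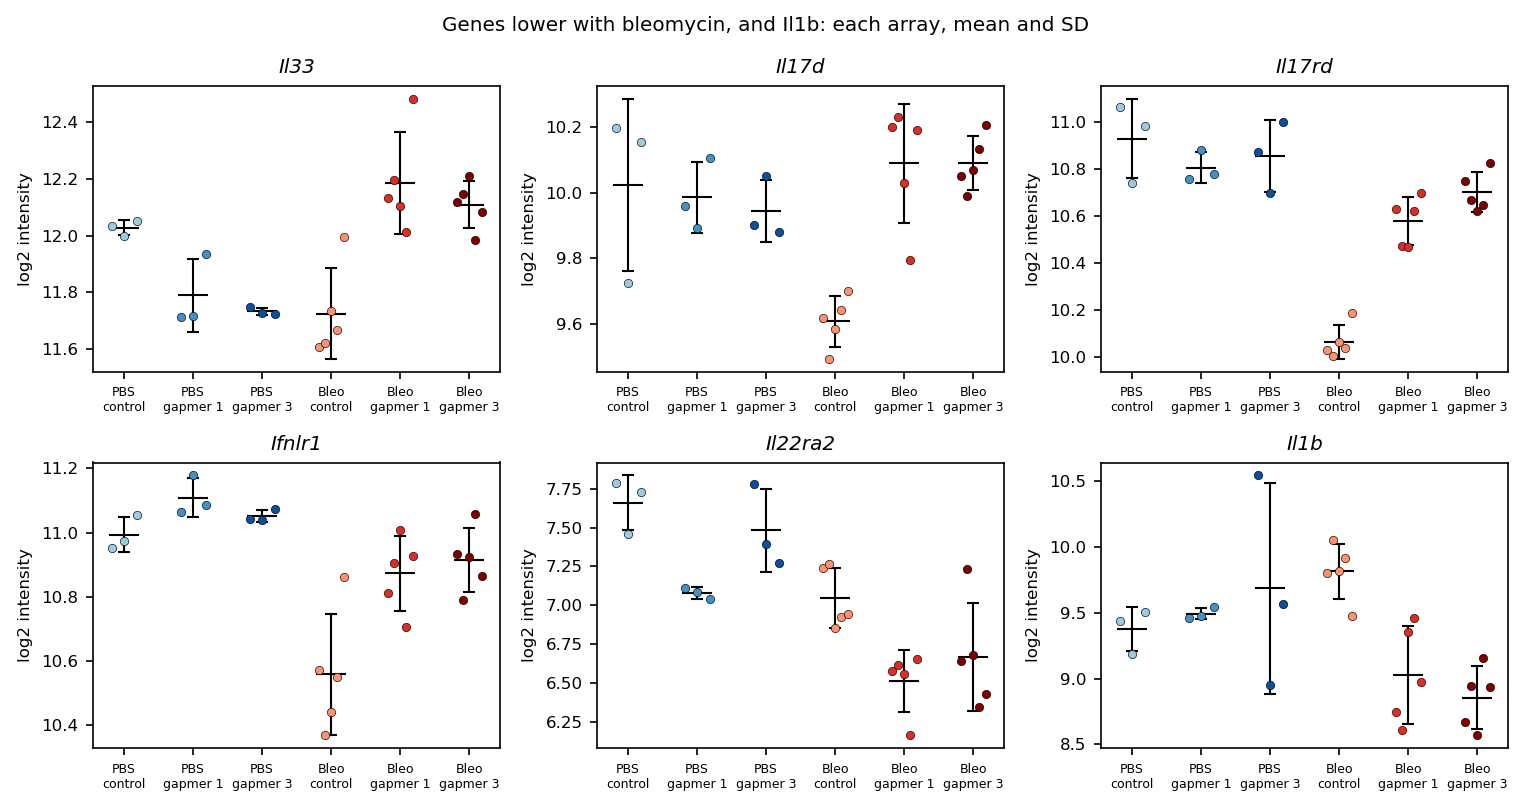
Log2 intensity of Il33, Il17d, Il17rd, Ifnlr1, Il22ra2 and Il1b on each array of the 6 groups, with the group mean and SD (n = 3 for PBS groups, n = 5 for bleomycin groups). Il17d and Il17rd are lower in the bleomycin controls than in either bleomycin group given gapmer 1 or gapmer 3, with no overlap. Il22ra2 has its lowest means in the bleomycin groups given gapmer 1 or gapmer 3. Its bleomycin gapmer 3 replicate 2, at 7.23, lies within the range of the bleomycin controls. Il1b reads 10.55 on PBS gapmer 3 replicate 1.

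Among antagonists and decoys, Il1r2, Il18bp and Il1rn rose with bleomycin and Il22ra2 fell. Il1r2, a decoy receptor that binds IL-1 without signalling, stood at 7.05, 7.28 and 6.88 with PBS and at 8.88, 9.02, 8.49, 8.98 and 8.68 with bleomycin, a rise of 1.74 ± 0.25 (SE, adjusted p = 1.45e-05). With the gapmers it stood at 7.98, 7.69, 8.10, 8.48 and 7.79 and 7.60, 7.81, 7.86, 7.66 and 7.66 in bleomycin lungs, lower by 0.81 ± 0.22 (SE, adjusted p = 0.0202) and 1.09 ± 0.22 (SE, adjusted p = 0.0018), without overlap. The gapmer 1 call was lost without bleomycin control replicate 2 (-0.75) or 4 (-0.76) or gapmer 1 replicate 2 (-0.73). In PBS lungs it was 7.77, 8.48 and 7.92 with gapmer 1, above all PBS controls, with a difference of 0.99 ± 0.28 (SE, adjusted p = 0.0771) that was not called, and PBS gapmer 3 replicate 1 read 8.26. These 4 PBS arrays are also the 4 with the highest squamous marker sums among PBS arrays, 15.94 to 16.99. The sums also differed between PBS controls, 9.51 to 14.39, and bleomycin controls, 15.53 to 15.84, the groups between which Il1r2 rose. The part of that tissue in the Il1r2 values, the rise with bleomycin included, was not tested.

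Il1rn, the secreted IL-1 receptor antagonist, lay at 6.42 to 6.59 with PBS and at 6.81 to 7.13 with bleomycin, a rise of 0.53 ± 0.11 (SE, adjusted p = 0.000626), and was lower with gapmer 1 by 0.33 ± 0.09 (SE, adjusted p = 0.0256) and with gapmer 3 by 0.46 ± 0.09 (SE, adjusted p = 0.00219). The gapmer 1 call was lost without 7 of the 10 arrays, all but bleomycin control replicate 5 and gapmer 1 replicates 1 and 4, at -0.34 to -0.30. Il18bp, which captures IL-18, rose by 0.88 ± 0.21 (SE, adjusted p = 0.00246), and its gapmer differences of -0.14 and -0.05 were not called. Its lowest bleomycin control, replicate 5 at 8.80, stood apart from the other 4 at 9.39 to 9.60. Il22ra2, the soluble IL-22 binding protein, fell from 7.79, 7.46 and 7.73 to 7.24, 7.26, 6.86, 6.92 and 6.94, by 0.61 ± 0.16 (SE, adjusted p = 0.00531), and was lower again with gapmer 1 by 0.53 ± 0.14 (SE, adjusted p = 0.0174). With gapmer 3 its difference of -0.38 ± 0.14 (SE, adjusted p = 0.0812) was not called. Il22ra2 is the one member whose fall with bleomycin was called under all 3 gapmers. Il13ra2, the IL-13 decoy, was dim in every group, with means of 5.75 to 5.95.

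Il4i1, a secreted L-amino acid oxidase of myeloid cells and B cells, rose by 2.18 ± 0.20 (SE, adjusted p = 7.12e-08), from 10.11, 10.63 and 10.45 to 12.73, 12.84, 12.38, 12.68 and 12.26. Under gapmer 1 and gapmer 3 it stood at 11.33, 10.89, 11.06, 11.78 and 11.65 and 11.52, 11.40, 10.83, 11.48 and 11.39 in bleomycin lungs, lower by 1.23 ± 0.18 (SE, adjusted p = 0.000135) and 1.25 ± 0.18 (SE, adjusted p = 6.67e-05). Its 10 gapmer arrays fell between the PBS controls and the bleomycin controls, with no overlap on either side.

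Counted together, gapmer 1 in bleomycin lungs raised 6 members and lowered 17, so that 23 of 82 were called, 28%, against 10.5% of all genes. With gapmer 3, 6 were higher and 18 lower, 24 called or 29.3%, against 13.2% of all genes. Both comparisons use the same 5 control arrays. By direction gapmer 1 gave 5.47% of all genes higher and 5.08% lower, and gapmer 3 gave 5.63% and 7.52%. Median differences were -0.06 and -0.09 over the members and 0.02 and 0.01 over all genes. Receptors gave 3 higher and 9 lower with gapmer 1 and 2 and 10 with gapmer 3, ligands 3 and 4 and then 4 and 5, and antagonists 0 and 3 and then 0 and 2. For each gapmer 19 members did not overlap with the controls, 3 higher and 16 lower, against 6.28% of all genes with gapmer 1 (2.87% higher and 3.41% lower) and 12.9% with gapmer 3 (4.83% and 8.03%). Leaving out bleomycin control replicate 2 reduced the gapmer 1 count to 14. Gapmer 3 against gapmer 1 in bleomycin lungs gave 0 calls among members and 0% of all genes by limma. At an unadjusted p under 0.05 were 2 of 82 members, Il18 and Il12a, and 837 of 20728 genes. The median 95% interval of a member there spanned 0.21 on either side, so smaller differences between the gapmers were not resolvable. The smallest p-values of each direction were those of Il17rd (0.12 ± 0.07 SE, adjusted p = 0.992), Il13 (0.34 ± 0.22 SE, adjusted p = 0.992), Il18 (-0.32 ± 0.11 SE, adjusted p = 0.992) and Il12a (-0.13 ± 0.05 SE, adjusted p = 0.992).

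**Figure D3:**
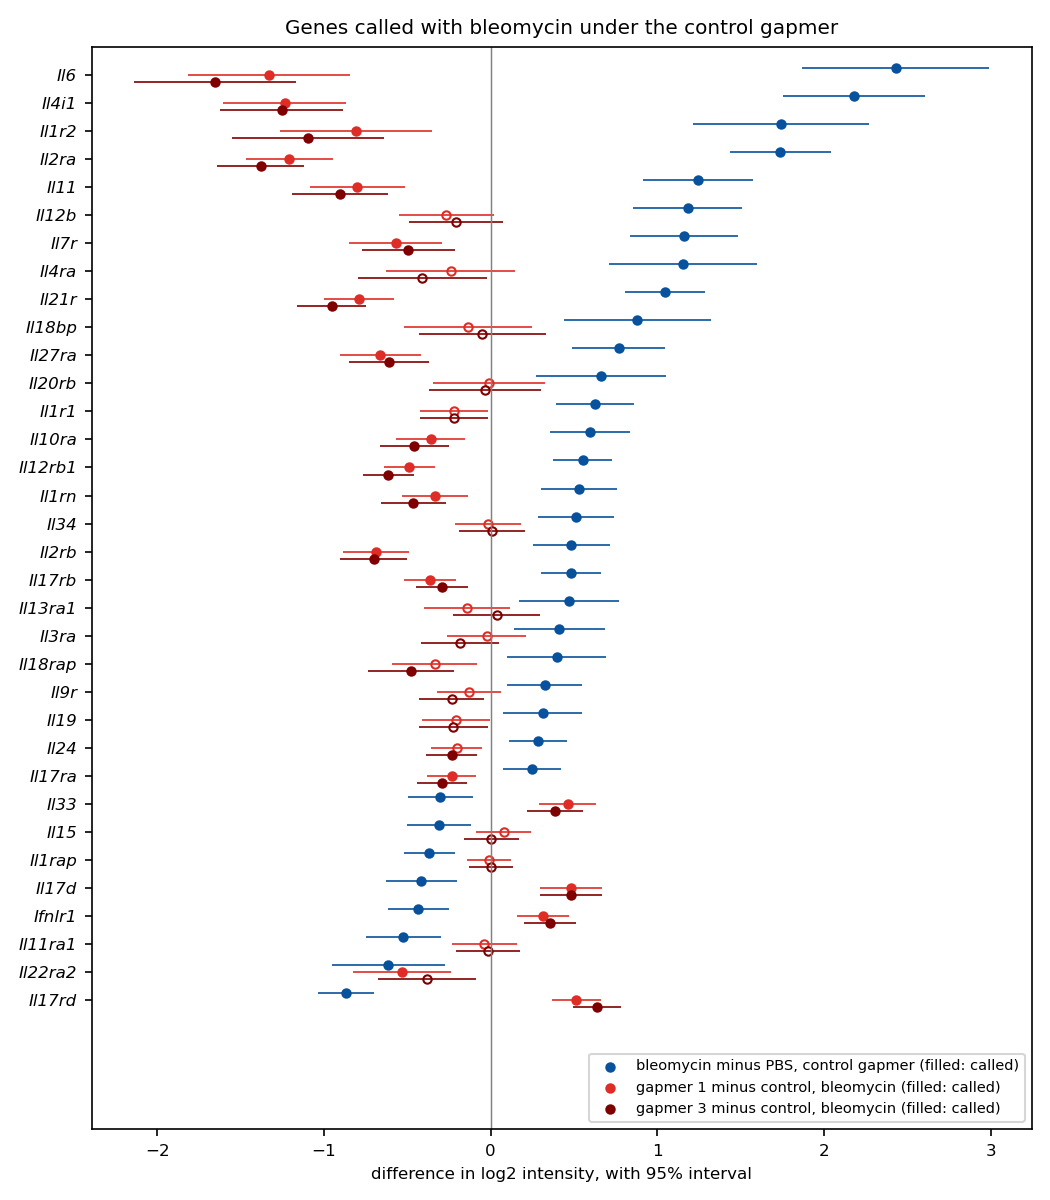
Difference in log2 intensity with its 95% interval for the 34 genes called with bleomycin under the control gapmer, shown beside the difference each gapmer made in bleomycin lungs. Filled points are called and open points are not, and Il6, Il4i1, Il1r2 and Il2ra rise above 1.7 with bleomycin and are lower with both gapmers, while Il4ra, Il18bp and Il34 keep open gapmer points. The 3 comparisons share the bleomycin control arrays.

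The bleomycin response was also read under each gapmer, from arrays that the control-gapmer comparison does not use. Under gapmer 1 6 members were higher and 1 lower, 7 called or 8.54%, against 9.48% of all genes (6.35% higher and 3.13% lower). Under gapmer 3 9 were higher and 4 lower, 13 called or 15.9%, against 13.9% (7.02% and 6.85%). These shares are near those of all genes. Of the 26 members raised under the control gapmer 5 were also raised under gapmer 1, 19.2% of the 26 and 83.3% of the 6, namely Il21r, Il4i1, Il4ra, Il6 and Il7r. Under gapmer 3 7 were, 26.9% of the 26 and 77.8% of the 9, namely Il12b, Il17rb, Il1r1, Il34, Il4i1, Il4ra and Il7r. The median response of the 26 was 0.61 under the control gapmer, 0.22 under gapmer 1 and 0.31 under gapmer 3. The 26 were chosen by their rise under the control gapmer, so a smaller response elsewhere is in part fixed by that choice. The shared calls and these medians were computed for the members alone. Whether they differ from those of other genes called under the control gapmer was not tested.

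The largest rises under gapmer 1 were Il6 by 0.93 ± 0.27 (SE, adjusted p = 0.0308), Il4ra by 0.77 ± 0.21 (SE, adjusted p = 0.0245), Il4i1 by 0.65 ± 0.20 (SE, adjusted p = 0.0467) and Il7r by 0.57 ± 0.16 (SE, adjusted p = 0.0226), and Il22ra2 fell by 0.56 ± 0.16 (SE, adjusted p = 0.0305). Leaving out PBS gapmer 1 replicate 1, 2 or 3, or bleomycin gapmer 1 replicate 1 or 4, reduced these 7 calls to 3, 2, 3, 4 and 1, and 1 was called with the RNA integrity number as a covariate or with these groups fitted alone. With that covariate the rise of Il6 was 0.62 and not called, and with the mean of its features that of Il4ra was 0.47 and called. Each of the 5 named calls was lost without at least 4 of the 8 arrays, with the direction kept. Under gapmer 3 the largest rises were Il4i1 by 0.95 ± 0.20 (SE, adjusted p = 0.0026), Il12b by 0.78 ± 0.16 (SE, adjusted p = 0.00173), Il4ra by 0.69 ± 0.21 (SE, adjusted p = 0.0342) and Il7r by 0.68 ± 0.16 (SE, adjusted p = 0.00454). The call on Il4ra was lost without PBS gapmer 3 replicate 2 or 3 or bleomycin gapmer 3 replicate 1, 2 or 3 (0.56 to 0.71), and with the mean of features Il12b rose by 0.51 and Il4ra by 0.43, both called. That on Il7r was lost without PBS gapmer 3 replicate 2 (0.52). The falls under gapmer 3 were Il1b by 0.83 ± 0.24 (SE, adjusted p = 0.024), Il22ra2 by 0.82 ± 0.16 (SE, adjusted p = 0.00142), Il16 by 0.42 ± 0.09 (SE, adjusted p = 0.00247) and Il6st by 0.26 ± 0.06 (SE, adjusted p = 0.00686). The fall of Il1b rested on PBS gapmer 3 replicate 1: without it the value was -0.40 and not called, and the call was also lost without PBS gapmer 3 replicate 3 (-0.89) or bleomycin gapmer 3 replicate 1 (-0.78) or 3 (-0.76).

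The difference between responses was tested directly. With gapmer 1 the response of 14 members differed, 3 more positive and 11 more negative than under the control gapmer, 17.1% of members against 7.7% of all genes (4.97% and 2.74%). The largest negative differences were those of Il1r2 (-1.79 ± 0.36 SE, adjusted p = 0.0063), Il4i1 (-1.53 ± 0.29 SE, adjusted p = 0.00478), Il6 (-1.50 ± 0.38 SE, adjusted p = 0.0221) and Il2ra (-1.43 ± 0.21 SE, adjusted p = 0.000487), and the positive ones were Il33, Il17rd (0.64 ± 0.11 SE, adjusted p = 0.00328) and Il17d (0.52 ± 0.15 SE, adjusted p = 0.0321). The Il1r2 value joins a difference of -0.81 in bleomycin lungs to one of 0.99 in PBS lungs, where the gapmer 1 arrays had squamous marker sums of 15.94 to 16.99 against 9.51 to 14.39 in the controls, and the part of that tissue was not tested. With gapmer 3 it was 11 members, 3 more positive and 8 more negative, 13.4% against 3.09% of all genes (1.45% and 1.64%). Il6 (-1.96 ± 0.38 SE, adjusted p = 0.00873), Il2ra (-1.31 ± 0.21 SE, adjusted p = 0.00149), Il1b and Il4i1 (-1.23 ± 0.29 SE, adjusted p = 0.0248) had the largest negative differences, and Il33, Il17rd (0.71 ± 0.11 SE, adjusted p = 0.00184) and Il17d (0.56 ± 0.15 SE, adjusted p = 0.0364) again the positive ones. With the RNA integrity number as a covariate 5 members were called with gapmer 3. Both sets of differences share the control-gapmer arrays.

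These counts moved with single arrays. The gapmer 1 count was 9 without PBS control replicate 1 or 3 or PBS gapmer 1 replicate 1, and 8 without PBS gapmer 1 replicate 2. The gapmer 3 count was 4 without PBS control replicate 1, 6 without PBS control replicate 3, 7 without PBS gapmer 3 replicate 1, 5 without bleomycin control replicate 2 and 6 without bleomycin control replicate 4. With gapmer 1 the call on Il6 was lost without PBS control replicate 1 (-1.49) or PBS gapmer 1 replicate 2 (-1.41). With gapmer 3 that on Il4i1 was lost without PBS control replicate 1 (-1.08) or 3 (-1.25), PBS gapmer 3 replicate 2 (-1.16) or bleomycin control replicate 2 (-1.16). The call on Il11 was lost with gapmer 1 without PBS control replicate 3 (-0.87) or PBS gapmer 1 replicate 1 (-0.85) or 2 (-0.81). With gapmer 3 it was lost without PBS control replicate 1 or 3, any PBS gapmer 3 array or bleomycin control replicate 2 or 4 (-0.93 to -0.85). The calls on Il17d were lost without 7 of the 16 arrays with gapmer 1 (0.43 to 0.51) and 11 with gapmer 3 (0.48 to 0.57), and that with gapmer 3 also with the mean of its features (0.36). Those on Il2ra, Il33, Il17rd and, with gapmer 3, Il6 were kept with any 1 array left out.

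In PBS lungs the gapmers gave few calls. With gapmer 1 Il1rap, the accessory chain of the IL-1 receptors, was the single member called, 1.22% against 1.11% of all genes (0.444% higher and 0.666% lower). It stood at 7.53, 7.36 and 7.31 with the control gapmer and at 7.17, 7.06 and 6.97 with gapmer 1, lower by 0.34 ± 0.08 (SE, adjusted p = 0.0462). This call was lost in 5 of the 6 fits that left out 1 of those arrays, all but that without PBS control replicate 2, at -0.39 to -0.27. With array weights or with the RNA integrity number as a covariate 6 members were called. The 1.11% of all genes belongs to the main fit, and no such share is given for those 2 settings. With gapmer 3 Il1rap stood at 7.03, 7.12 and 7.12, a difference of -0.31 ± 0.08 (SE, adjusted p = 0.253). No member was called by limma with gapmer 3, against 0.0338% of all genes (0.00965% higher and 0.0241% lower). At an unadjusted p under 0.05 were 10 of 82 members and 2024 of 20728 genes. The smallest p-values besides Il1rap were those of Il11ra1 (-0.38 ± 0.12 SE, adjusted p = 0.338), Il25 (0.25 ± 0.09 SE, adjusted p = 0.388) and Il17re (0.35 ± 0.14 SE, adjusted p = 0.42).

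The IL-36 ligands Il1f6, Il1f8 and Il1f9 and their antagonist Il1f5, genes of stratified epithelium, varied widely between arrays of the same group. Il1f6 read 6.70, 6.99 and 5.58 on PBS control arrays, 9.56, 10.53 and 9.59 with gapmer 1 and 10.56, 5.51 and 6.95 with gapmer 3. With bleomycin it read 9.04, 8.65, 9.00, 8.96 and 7.48, 9.60, 8.69, 7.77, 9.41 and 9.68 and 5.68, 8.91, 9.61, 9.18 and 9.34 in the same order of gapmers. No comparison called any of these 4 genes, and the bleomycin difference of Il1f6 was 2.20 ± 0.87 (SE, adjusted p = 0.0559). The squamous marker sum was 12.92, 14.39 and 9.51 on the PBS controls, 15.94, 16.99 and 15.99 with gapmer 1 and 16.89, 9.45 and 13.15 with gapmer 3. It was 15.78, 15.53, 15.56, 15.74 and 15.84, 16.12, 16.32, 16.13, 15.97 and 15.95 and 10.55, 15.81, 16.17, 15.38 and 15.70 in the bleomycin groups. Of its 8 markers Krt6a and Ivl were dim. The 6 arrays with sums under 15 had the 6 lowest Il1f6 values. Among the others the order differed: bleomycin control replicate 5 (7.48) and bleomycin gapmer 1 replicate 3 (7.77) were lowest in Il1f6 with sums of 15.84 and 16.13. The part of squamous tissue in these values was not tested.

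**Figure D4:**
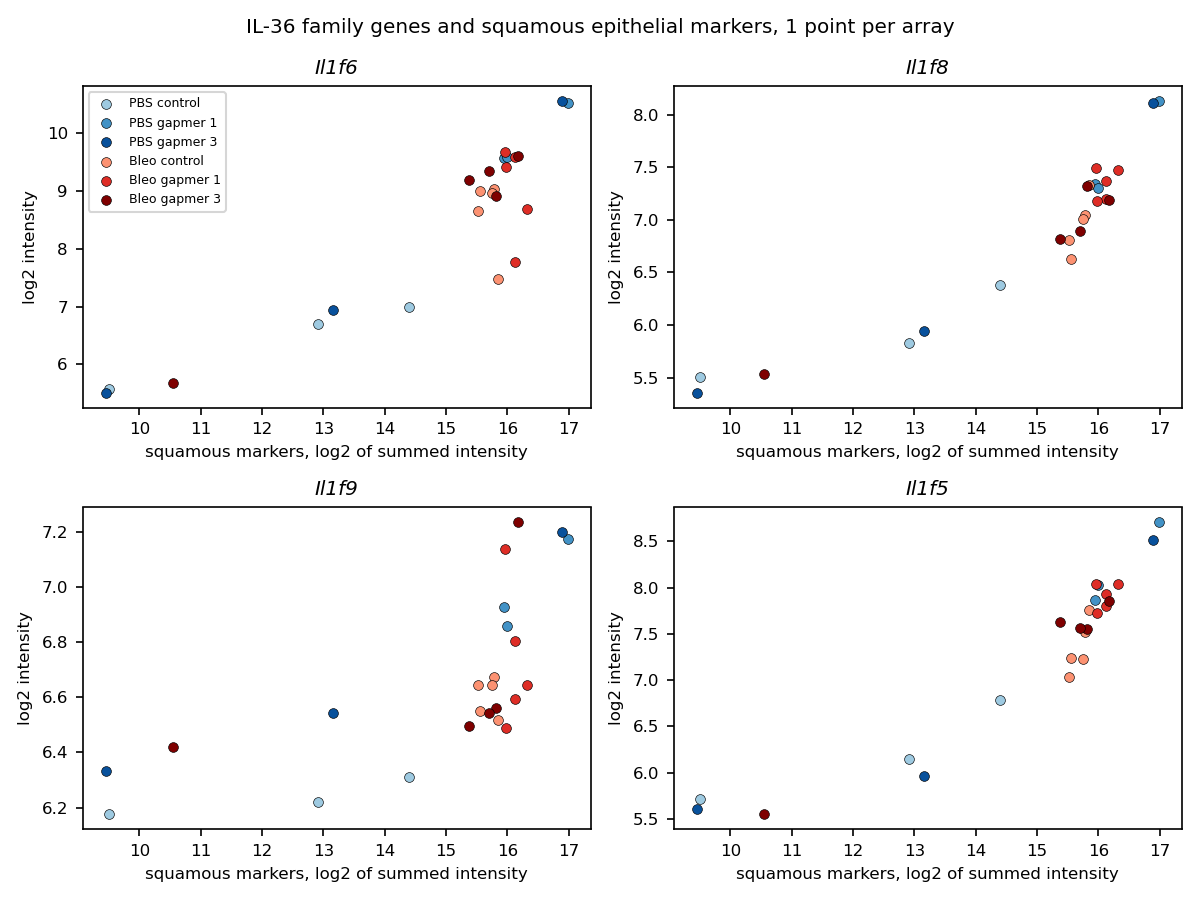
Log2 intensity of Il1f6, Il1f8, Il1f9 and Il1f5 on each of the 24 arrays against the log2 of the summed intensity of 8 squamous epithelial markers, coloured by group. Arrays with marker sums under 15 read below 7 for Il1f6, and those above 15 read between 7.48 and 10.56.

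Besides Il12b, several ligands could be judged only with care for single spots. Il4, the type 2 cytokine, has 10 spots, and the one used read 14.32 on PBS gapmer 3 replicate 1 where the other 9 read 6.25 to 7.12. With that spot the bleomycin lungs showed uncalled differences of -0.48 ± 0.87 (SE, adjusted p = 0.817) and -0.45 ± 0.87 (SE, adjusted p = 0.802) with the gapmers. With the median of the 10 spots Il4 was lower by 0.42 and 0.49 and called with both, an alternative chosen after the bright spot was seen. Its bleomycin arrays under the control gapmer read 6.91, 7.05, 6.77, 6.89 and 6.89 on the spot used, against 6.45, 6.22, 6.31, 6.91 and 6.24 and 6.49, 6.19, 6.68, 6.54 and 6.33.

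Il10, an anti-inflammatory cytokine, read 8.76 on bleomycin gapmer 1 replicate 2 on the spot used, where the other 9 read 5.59 to 6.08. Its remaining arrays lay between 5.51 and 6.06, which is dim, and the difference with gapmer 1 in bleomycin lungs was 0.43 with that array and -0.17 without it, neither called. Without that array the bleomycin difference of Il10 under the control gapmer, 0.27 in both fits and between dim groups, was called. Il2rg, the common γ chain, has a single feature, and this read 15.33 on PBS gapmer 3 replicate 3 while the other 23 arrays lay between 10.42 and 11.26. Its bleomycin rise of 0.54 ± 0.61 (SE, adjusted p = 0.544) and its gapmer differences of -0.31 ± 0.52 (SE, adjusted p = 0.797) and -0.40 ± 0.52 (SE, adjusted p = 0.706) were not called with all arrays. All 3 were called, with the same values, once that array was left out. The dim ligands Il5 and Il13 each had 1 such array, bleomycin gapmer 3 replicate 2 at 8.27 and bleomycin gapmer 3 replicate 3 at 7.31. Il17a, the defining cytokine of Th17 cells, lay between 5.40 and 6.19 on all arrays and was called in no comparison.

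**Figure D5:**
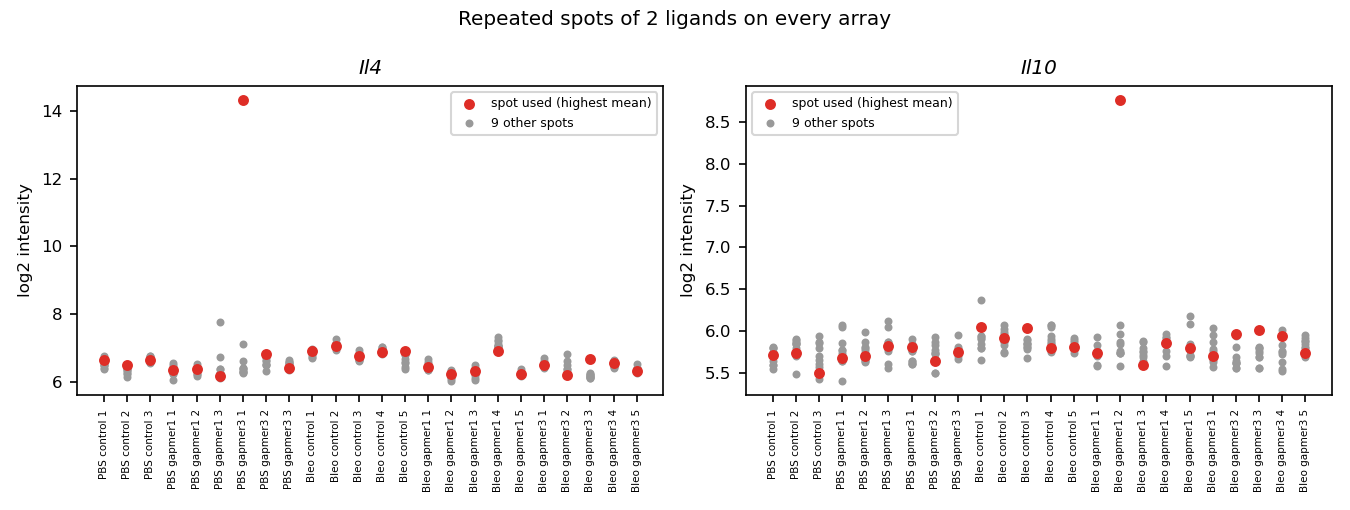
Log2 intensity of all 10 spots of Il4 and of Il10 on each of the 24 arrays, with the spot used in red and the 9 others in grey. The spot used for Il4 reads 14.32 on PBS gapmer 3 replicate 1 and that for Il10 reads 8.76 on bleomycin gapmer 1 replicate 2, apart from the other spots of the same arrays.

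Other genes of interleukin signalling, from kinases, STAT and SOCS proteins and inflammasome parts to related cytokines and their receptors, were counted from a list of 51, of which 48 were measured. With bleomycin 18 were higher and 6 lower, 50% against 33.8% of all genes (14.5% higher and 19.3% lower), with a median of 0.15. Socs3, the feedback inhibitor of gp130 signalling, rose by 2.06 ± 0.18 (SE, adjusted p = 3.21e-08), and Csf2rb, the β chain shared by IL-3, IL-5 and GM-CSF receptors, by 1.23 ± 0.09 (SE, adjusted p = 6e-09). Pycard, the adaptor of inflammasomes, rose by 1.11 ± 0.11 (SE, adjusted p = 1.38e-07), Ebi3, a chain of IL-27, by 1.08 ± 0.39 (SE, adjusted p = 0.0344), and Lifr, the receptor for LIF, fell by 0.97 ± 0.12 (SE, adjusted p = 1.36e-06).

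With gapmer 1 in bleomycin lungs 0 of the 48 were higher and 9 lower, 18.8% against 10.5% of all genes, and with gapmer 3 0 and 11, 22.9% against 13.2%. Socs3 was lower by 0.86 ± 0.16 (SE, adjusted p = 0.00126) and 1.00 ± 0.16 (SE, adjusted p = 0.000192), and Socs1, a second feedback inhibitor, by 0.71 ± 0.11 (SE, adjusted p = 0.000208) and 0.73 ± 0.11 (SE, adjusted p = 9.12e-05). Tnfaip3, an inhibitor of NF-κB signalling, was lower by 0.44 and 0.35, and Stat4, which carries the IL-12 signal, by 0.42 and 0.62. Socs3 was thus lower in the same groups as Il6 and Il11, and a link between them was not tested. The response differed for Socs1, Socs3 and Pycard (more negative) and for Tslp, an epithelial cytokine (more positive), with both gapmers, and Tslp differed by 0.49 ± 0.15 (SE, adjusted p = 0.0476) and 0.62 ± 0.15 (SE, adjusted p = 0.0261). In PBS lungs Pycard alone of the 48 was called, higher by 0.58 ± 0.12 (SE, adjusted p = 0.0307) with gapmer 1.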

How the data were processed

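The authors deposited 1 table of log2 intensities for 62976 features on 24 arrays, made with limma per the submitters' processing notes, from total RNA labelled with Cy3 per the labels' protocols. Array medians lay between 6.48 and 6.50 and the arrays' quantiles were nearly identical, so between-array quantile normalisation had been applied, and a difference is relative to the array's other features. Not stated in these sources are background correction, slide and scan, and the number of arrays limits the precision.

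Of the features 31465 carried 1 gene symbol in the platform annotation and 31511 none. Each of the 20728 genes was represented by its feature with the highest mean. The 82 members came from 135 features, and 20 had more than 1. One fit with 6 group means was made in limma 3.58.1 (R 4.3.3) with lmFit and eBayes (18 residual degrees of freedom), with Benjamini-Hochberg adjustment over all genes, tested beforehand on simulated data. All tests were two-sided. Promoter windows were RefSeq's, and Python 3.11.15 with pandas 2.3.3 and matplotlib 3.10.9 made the counts and figures.

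Named members were a fixed set of 26 well-known interleukin genes, the 8 largest called rises and falls in bleomycin against PBS and in each gapmer comparison within bleomycin, and the 4 largest called differences per direction elsewhere (the smallest p-values where none was called). Others were named after their values were seen, such as those with a single bright spot. Of the fixed set, Il1rl1 was not analysed here, and Il36g carries its older symbol Il1f9. Members, roles and marker and pathway lists were chosen with earlier results of these data known. Alternatives covered the choice of feature, centring, dim genes, the variance trend, array weights, RNA integrity number, replicate block, position on the array, the groups fitted, and leaving out each sample.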

Additional observations from a re-analysis of the deposited data

Results flagged for a closer look

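The bleomycin response differed from that under the control gapmer, by limma's interaction test with adjusted p under 0.05, for the following members. With gapmer 1 the log2 difference in response was -1.79 for Il1r2, -1.53 for Il4i1, -1.50 for Il6, -1.43 for Il2ra and -0.87 for Il11. The smaller negative differences were -0.69 for Il27ra, -0.63 for Il21r, -0.61 for Il2rb, -0.57 for Il12rb1, -0.55 for Il10ra and -0.41 for Il17rb. Il33, Il17rd and Il17d differed by 0.70, 0.64 and 0.52. With gapmer 3 the differences were -1.96 for Il6, -1.31 for Il2ra, -1.27 for Il1b, -1.23 for Il4i1 and -0.91 for Il11. Il21r, Il27ra and Il10ra differed by -0.78, -0.77 and -0.66, and Il17rd, Il33 and Il17d by 0.71, 0.68 and 0.56. The Il11 call was lost without any 1 of 3 arrays with gapmer 1 and of 7 arrays with gapmer 3.

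Single samples stood apart from the other 4 of their group for 13 of 120 sets of values examined, and chance gives about 1 in 20. The sets come from the same arrays and are not independent, so the 13 are not weighed against that rate. Bleomycin control replicate 5 was high for Il18 (10.77 against 10.22 to 10.37) and low for Il18bp (8.80) and Il7r (9.55). Bleomycin gapmer 3 replicate 3 was low for Il21r (7.41) and Il4i1 (10.83) and high for Il13 (7.31) and Il1f9 (7.24 against 6.42 to 6.56). Bleomycin gapmer 3 replicate 1 was high for Il11 (7.73), Il1rap (7.15) and Il17a (6.19). In the gapmer 1 group replicate 2 was high for Il10 (8.76), replicate 3 low for Il2rb (8.22) and replicate 4 low for Il22ra2 (6.16).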

How the results depend on the processing

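Over 10 alternative settings, 1 of them chosen after seeing the data, the counts of called members for bleomycin against PBS under the control gapmer and for each gapmer in bleomycin lungs stayed within 1.5 times of 34, 23 and 24. The 0 counts for gapmer 3 in PBS and for gapmer 3 against gapmer 1 were 0 in every fit. The single call with gapmer 1 in PBS became 0 with the mean or median of a gene's features, a variance trend, the replicate block or a position trend removed, 3 with only the groups compared, and 6 with array weights or the RNA integrity number. The bleomycin count under gapmer 1 fell from 7 to 1 with the RNA integrity number and to 1 with only the groups compared. With array weights the bleomycin count under gapmer 3 rose from 13 to 20 and the difference in response with gapmer 3 from 11 to 18, with all 13 and all 11 retained, while the RNA integrity number left 5. The cause of these moves was not tested. Shares of all genes are given for the main fit alone, so counts of members under other settings have no such share beside them.

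Leaving out 1 sample gave 28 to 38 calls for bleomycin, 14 to 24 for gapmer 1 and 20 to 25 for gapmer 3 in bleomycin lungs, and 0 to 1 for gapmer 1 in PBS. It gave 1 to 9 and 12 to 16 for bleomycin under gapmer 1 and gapmer 3, and 8 to 17 and 4 to 16 for the differences in response. Il10 with gapmer 1 in bleomycin lungs reversed from 0.43 to -0.037 with the mean of its features, -0.09 with their median and -0.17 without bleomycin gapmer 1 replicate 2, and other samples left out gave up to 0.62. That array's spot read 8.76. None of these was called.

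The replicate number as a block gave 34, 24, 26, 0, 0, 6, 13, 15, 13 and 0 calls in the order of bleomycin, both gapmers in bleomycin, both in PBS, bleomycin under both gapmers, both differences in response and gapmer 3 against gapmer 1. Not every same-numbered pair correlated above 0.1, so the numbers were not taken to pair the samples. The 51 such pairs had correlations of deviations from -0.41 to 0.42, with a median of 0.07 against -0.03 for 186 other pairs, 23 of the 51 were over 0.1, and 10 of 24 arrays correlated best with their own number. A rule that every pair must pass is strict, and it cannot exclude a weaker link between same-numbered samples. Calls on Il18, Il17rc and Ifnlr1 with gapmer 1, Il25 with gapmer 3, and Il15 and Il13ra1 with bleomycin were each lost in at least 1 setting, and those on Il12b with both gapmers were gained with the mean or median of its spots.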

Other observations

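By cytokine family, the common γ chain group had 17 members, with Il13, Il13ra1 and Il13ra2 counted in although they belong to the IL-13 system. It gave 7 rises, Il13ra1 among them, and 1 fall with bleomycin under the control gapmer, 47.1% called against 33.8% of all genes. With each gapmer in bleomycin lungs this group gave 0 rises and 4 falls, 23.5% against 10.5% of all genes with gapmer 1 and 13.2% with gapmer 3. The 9 members of the gp130 family gave 3 rises and 1 fall, 44.4%, then 0 and 3 with each gapmer, 33.3%. The 11 members of the IL-17 family were mixed, with 2 rises and 2 falls with bleomycin, 36.4%, which is near the share of all genes, and 3 rises and 2 falls with each gapmer, 45.5%. Their rises with gapmers included Il17d and Il17rd, and the falls were those of Il17ra and Il17rb. The 4 members of the IL-3, IL-5 and GM-CSF receptor family had 1 rise with bleomycin, 25%, and no call with a gapmer by limma.

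Single arrays also stood out for ligands and receptors that were otherwise dim. Il3 read 6.94 on PBS gapmer 3 replicate 1 against 5.61 to 6.06 on the others, Il21 read 6.78 on bleomycin control replicate 2 against 5.38 to 6.01, and Il22ra1 read 7.09 on PBS gapmer 1 replicate 3 against 5.64 to 6.31. Il5 was lower with gapmer 3 by 0.28 and called once its array at 8.27 was left out.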
